A study of Mus musculus with 12 samples.

Results

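Inward rectifier potassium channels set the resting potential of the cardiomyocyte and close its action potential, and 8 genes that encode them or their regulatory subunits were followed here, of the 20775 genes listed in the tables. The genes were taken by name: Kcnj2 and Kcnj12, which encode the Kir2 pores of the classical inward rectifier current IK1; Kcnj3 and Kcnj5, which encode the Kir3 subunits of the acetylcholine-activated current IK,ACh; and the pores Kcnj8 and Kcnj11 with the sulfonylurea receptors Abcc8 and Abcc9, which together form ATP-sensitive potassium (KATP) channels. All 8 were listed in both tables. RNA had been sequenced from E10.5 hearts (3 Ctrl and 3 cKO samples) and from cardiomyocytes isolated 4 weeks after tamoxifen (3 Ctrl and 3 icKO samples), in mice labelled C57BL/6.

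In the cKO, Tnnt-Cre deleted a floxed first exon of Med30, a subunit of the Mediator complex, in developing cardiomyocytes; in the icKO, tamoxifen-activated αMHC-MerCreMer deleted it in adults, and the samples were labelled 3 months old. Controls were labelled wild type; the study's methods describe them as littermates that carried the same Med30 f/f alleles without Cre, and at the adult stage they also received tamoxifen. In these samples Cre itself therefore cannot be told apart from the loss of Med30. In a separate test of the study, αMHC-MerCreMer mice without a floxed allele showed no mortality or cardiac dysfunction after tamoxifen. That test covered survival and echocardiography. Both Cre drivers are cardiomyocyte-specific, so the other cells of an E10.5 heart still carried Med30. Med30 was 10.6, 13.3 and 11.3 RPKM (read counts scaled to transcript length and library depth) in the E10.5 Ctrl samples and 1.38, 2.02 and 1.004 in cKO. At 4 weeks it was 7.66, 7.45 and 7.66 in Ctrl and 3.81, 3.16 and 1.83 in icKO, so the targeted transcript was lower in every knockout sample of both stages. These values cover the whole gene, including exons that the deletion leaves in place.

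Inward rectifiers pass potassium more easily into the cell than out of it, because polyamines and magnesium block the pore on depolarization. Kir2 channels stay open at rest and hold the membrane near the potassium equilibrium potential. Kir3 (GIRK) channels open when G protein βγ subunits are released by the muscarinic M2 receptor, and slow the pacemaker and the atria. KATP channels close when ATP is high and couple the membrane potential to metabolism. All of them need the lipid PIP2 in order to open.

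The 8 genes lie at 6 places in the mouse genome (GRCm38, gene bounds of GENCODE M21). Kcnj2 (chr11:111066164-111076821, plus strand) and Kcnj12 (chr11:61022564-61071131, plus strand) share a chromosome but are far apart, Kcnj3 lies at chr2:55435970-55598145 (plus strand) and Kcnj5 at chr9:32314707-32344350 (minus strand). The KATP genes form 2 pairs of neighbours, each made of a pore and a receptor on the same strand with no annotated gene between them. Kcnj8 (chr6:142564837-142571614) and Abcc9 (chr6:142587862-142702315) are 16.2 kb apart on the minus strand, and Kcnj11 (chr7:46093953-46100764, a single exon) and Abcc8 (chr7:46104523-46180033) are 3.76 kb apart, also on the minus strand. Exons of Kcnj3 share 1621 bases with the antisense lincRNA Gm26794 and those of Abcc9 share 158 with the antisense gene 5330439B14Rik; whether reads were counted by strand is not given in the sources used here, so reads of these overlaps cannot be assigned.

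The RefSeq promoter table (GRCm38.p6) held 6 of the 8 genes, those other than Kcnj11 and Abcc8. Below are 250 bases each, 5′ to 3′ on the gene's own strand, from 240 before to 10 bases after and including the RefSeq start. Abcc9 (chr6:142702265-142702514, minus strand) and Kcnj8 (chr6:142571605-142571854, minus strand) are shown because these neighbours differed in the adult knockout, and Kcnj3 (chr2:55435730-55435979, plus strand) and Kcnj5 (chr9:32344335-32344584, minus strand) because these partners fell together. Capitals mark the motif matches described next.
Abcc9: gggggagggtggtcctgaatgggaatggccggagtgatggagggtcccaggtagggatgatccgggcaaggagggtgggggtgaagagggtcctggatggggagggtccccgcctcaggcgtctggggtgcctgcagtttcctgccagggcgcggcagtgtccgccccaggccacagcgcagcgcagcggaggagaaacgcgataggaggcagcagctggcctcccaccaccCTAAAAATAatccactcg
Kcnj8: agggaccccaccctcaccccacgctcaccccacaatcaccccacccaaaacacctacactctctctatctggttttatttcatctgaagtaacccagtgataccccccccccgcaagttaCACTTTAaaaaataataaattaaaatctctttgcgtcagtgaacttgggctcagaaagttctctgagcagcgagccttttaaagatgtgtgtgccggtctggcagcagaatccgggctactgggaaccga
Kcnj3: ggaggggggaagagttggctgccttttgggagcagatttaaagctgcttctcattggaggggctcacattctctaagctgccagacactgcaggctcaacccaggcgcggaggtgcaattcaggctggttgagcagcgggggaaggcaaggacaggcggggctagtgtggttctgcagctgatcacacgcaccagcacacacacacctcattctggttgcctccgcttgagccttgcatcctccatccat
Kcnj5: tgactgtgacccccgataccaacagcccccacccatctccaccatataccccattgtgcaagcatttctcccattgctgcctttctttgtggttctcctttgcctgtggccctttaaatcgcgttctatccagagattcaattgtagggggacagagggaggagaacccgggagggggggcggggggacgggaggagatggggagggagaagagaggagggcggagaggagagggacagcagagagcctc

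Over 300 bases (250 before to 50 after the start), 5 letter strings of cardiac factors and of the TATA box were searched on both strands of the 6 promoters. The MEF2 string CTAAAAATA was found in Abcc9 alone, at -8 to 1 counted from the start, and occurs in 0.517% of the 32851 promoters in the table. The NKX2-5 string TNAAGTG was found in Kcnj8 alone, as its reverse complement CACTTTA at -120 to -114, and occurs in 11.5% of promoters. None of the 6 held AGATAA, the string of GATA factors (11.2% of promoters), the core promoter string TATAAA (13.6%) or the T-box factor string AGGTGTGA (1.28%). The promoter of Abcc9 was 66.4% G and C over the bases shown and that of Kcnj8 49.2%, beside a median of 52.4% over all promoters. The strings were chosen after the sequences had been seen, and a match is a description of the letters only.

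At E10.5, estimated depth was 13.7 to 20 M reads per sample and at 4 weeks it was 11.96 to 17.5 M, so that 3 reads on a 2 kb transcript correspond to at most 0.125 RPKM. Cardiomyocyte markers (Tnnt2, Actn2, Myh6, Tnni3, Ttn, Ryr2) summed to 11842 RPKM or more in each adult Ctrl sample and to 4448 to 5276 in icKO. The 20 most abundant genes took 24.8% to 25.4% of the adult Ctrl values and 11.5% to 13.1% of those of icKO. Over the 9517 genes tested at 4 weeks, the median log2 fold change was 0.57 on RPKM as deposited and 0.01 after median-ratio scaling. Both scales are therefore given for the adult comparison. At E10.5 the median was -0.13 as deposited and -0.01 after scaling.

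In adult cardiomyocytes, transcripts of channels for all 3 currents fell in the knockout. Of the 8 genes, 7 had a mean above 1 RPKM and were tested, and 6 of them fell (limma, adjusted p below 0.05 together with a change beyond 1 on the log2 scale), namely Abcc9, Kcnj5, Kcnj3, Kcnj11, Kcnj2 and Abcc8. None rose. Among all genes tested, 8.45% were called lower and 28% higher, and after median-ratio scaling 15.9% were lower and 11.1% higher, with all 7 tested channel genes then called lower. The median log2 fold change of the 7 genes was -2.63 as deposited and -3.19 after scaling, beside 0.57 and 0.01 for all genes. At E10.5, 5 of the 8 genes were tested and none was called in either direction, beside 0.542% of all genes called lower and 0.239% higher, or 0.377% and 0.322% after scaling.

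**Figure D1:**
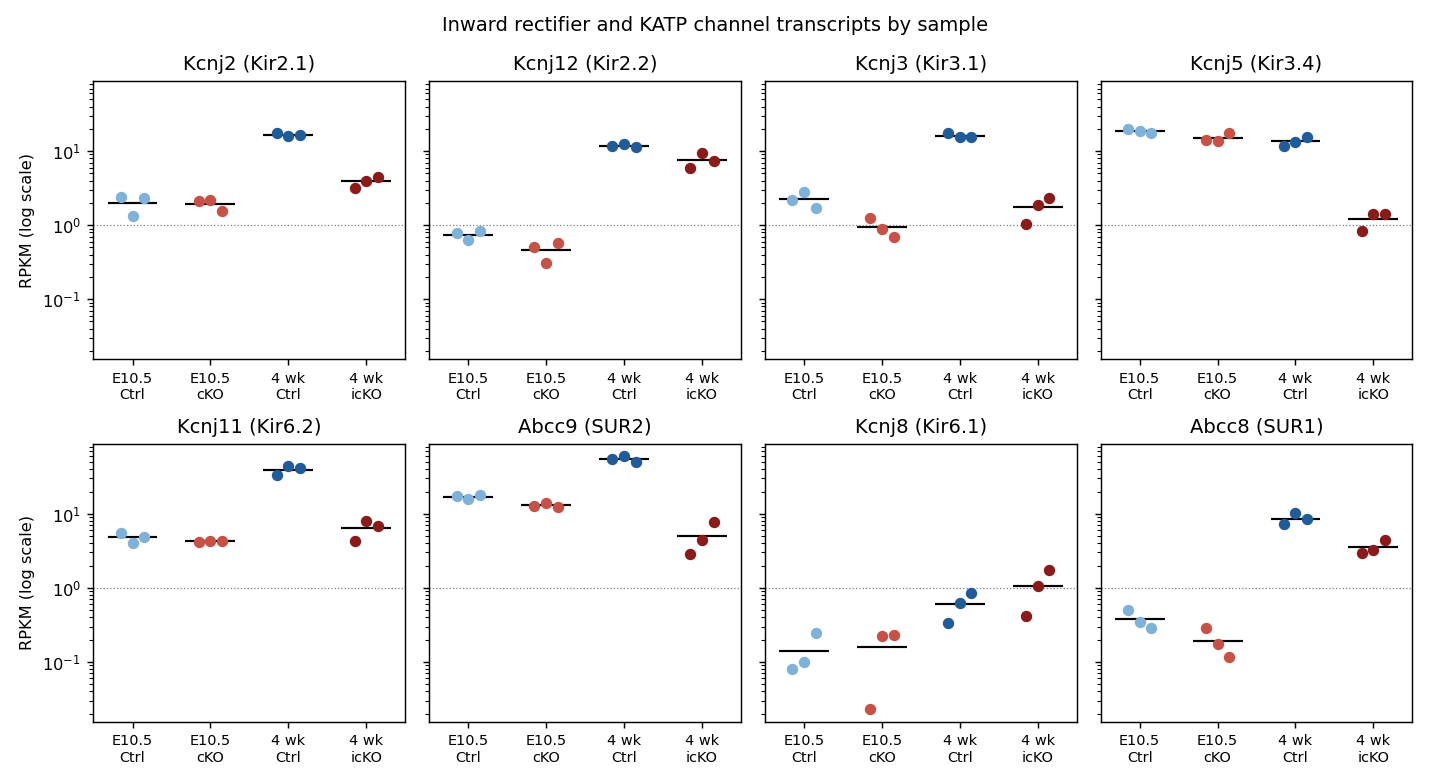
RPKM of each channel gene by sample on a log scale, with Ctrl and knockout samples of E10.5 hearts and of adult cardiomyocytes in 4 columns; points are samples, bars are group means and the dotted line is 1 RPKM. At 4 weeks the Ctrl and icKO points are apart for 7 of the 8 genes and overlap for Kcnj8, whereas at E10.5 they are apart for Kcnj3, Kcnj5, Kcnj12 and Abcc9 and overlap for the other 4.

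Kcnj2 encodes Kir2.1, the principal IK1 pore of the ventricle. It measured 17.5, 16.1 and 16.5 RPKM in the adult Ctrl samples and 3.20, 3.99 and 4.50 in icKO. The Ctrl samples all lay far above the icKO samples, as they did without overlap for each of the 7 genes other than Kcnj8. Among all genes, 18.9% had every icKO sample below every Ctrl sample and 62% had every one above. The mean went from 16.7 ± 0.727 to 3.90 ± 0.655 RPKM (SD, n = 3 each), a 4.29-fold difference, and the log2 fold change was -2.08 (SE 0.129, limma adjusted p = 1.28e-06). On the median-ratio scale it was -2.64.

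Kcnj12 encodes Kir2.2, the second Kir2 pore of the heart, and was reduced less. It measured 11.5, 12.3 and 11.2 RPKM in adult Ctrl samples and 5.95, 9.34 and 7.25 in icKO. The groups did not overlap, but the highest icKO sample came close to the lowest Ctrl sample. The means were 11.7 ± 0.569 and 7.51 ± 1.71 RPKM, and the log2 fold change of -0.65 (SE 0.152, limma adjusted p = 0.00346) passed the p threshold and not the fold threshold. Of all genes, 18.1% were lower at that p alone. After median-ratio scaling the log2 fold change was -1.21 (limma adjusted p = 0.000136), which passed both, so the call on Kcnj12 depended on the scaling.

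The balance of the Kir2 pores differed between the groups as well. Kcnj2 made up 60.3%, 56.7% and 59.5% of the summed Kir2 RPKM in adult Ctrl samples and 35.0%, 29.9% and 38.3% in icKO. A share within a library does not depend on the scaling between libraries. The mean share was 58.8% ± 1.88 in Ctrl and 34.4% ± 4.23 in icKO, a difference of -24.4 percentage points without overlap (exact permutation test, two-sided p = 0.1, the smallest that 3 samples against 3 can give, and 0.133 after adjustment over the 4 shares of the stage).

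In the E10.5 hearts, both Kir2 transcripts were low. Kcnj2 was 2.40, 1.31 and 2.345 RPKM in Ctrl and 2.11, 2.19 and 1.56 in cKO, and these samples overlapped completely. Its log2 fold change was -0.01 (SE 0.268, 95% confidence interval -0.61 to 0.59, limma adjusted p = 0.982), an interval that reaches well to both sides of 0. Kcnj12 was 0.785, 0.623 and 0.823 RPKM in Ctrl and 0.513, 0.306 and 0.573 in cKO, under the filter of a mean of 1 RPKM. Every cKO sample was below every Ctrl sample (exact permutation test, two-sided p = 0.1, the smallest possible). The same held for 22.6% of the genes above the filter at this stage, a set without Kcnj12. Fitted without the filter, its log2 fold change was -0.61 (limma adjusted p = 0.390). The Kcnj2 share was 72.4% ± 4.03 in Ctrl and 80.4% ± 7.33 in cKO, and the groups overlapped (exact permutation test, two-sided p = 0.3).

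In the GIRK pair both partners fell. Kcnj3 encodes Kir3.1, which does not reach the membrane as a functional channel without a partner such as Kir3.4. It measured 17.4, 15.4 and 15.7 RPKM in adult Ctrl samples and 1.02, 1.87 and 2.36 in icKO. Means were 16.2 ± 1.07 and 1.75 ± 0.676 RPKM, 9.23-fold apart. The log2 fold change was -3.21 (SE 0.248, limma adjusted p = 4.16e-06), and -3.75 after median-ratio scaling.

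Kcnj5 encodes Kir3.4, the partner of Kir3.1. It measured 11.8, 13.2 and 15.7 RPKM in adult Ctrl samples and 0.826, 1.40 and 1.43 in icKO. The means of 13.6 ± 1.96 and 1.22 ± 0.340 RPKM were 11.1-fold apart, and the log2 fold change was -3.40 (SE 0.205, limma adjusted p = 1.15e-06), or -3.94 after scaling. Kcnj3 made up 54.5% ± 4.77 of the summed pair in Ctrl and 58.3% ± 3.65 in icKO. These shares overlapped (exact permutation test, two-sided p = 0.4), with single samples between 50.03% and 62.3%.

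In the embryo the pair was far from even. Kcnj5 was the most abundant of the 8 transcripts, at 19.6, 18.4 and 17.6 RPKM in Ctrl and 14.1, 13.8 and 17.3 in cKO, whereas Kcnj3 was 2.2, 2.84 and 1.69 RPKM in Ctrl and 1.26, 0.888 and 0.695 in cKO. For both genes the cKO samples were all under the Ctrl samples. Kcnj3 had the lowest fold change of the 5 genes tested, with a log2 value of -1.17 (SE 0.294), but its limma adjusted p of 0.0551 missed the threshold, and it ranged from 0.0515 to 0.152 over 15 alternative settings. In this comparison 60 of the 10885 genes tested had a lower fold change than Kcnj3. Kcnj5 had a log2 fold change of -0.30 (SE 0.122, limma adjusted p = 0.174). The Kcnj3 share was 10.7% ± 2.36 in Ctrl and 6.04% ± 2.19 in cKO, without overlap (exact permutation test, two-sided p = 0.1, the smallest possible, and 0.4 after adjustment).

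**Figure D2:**
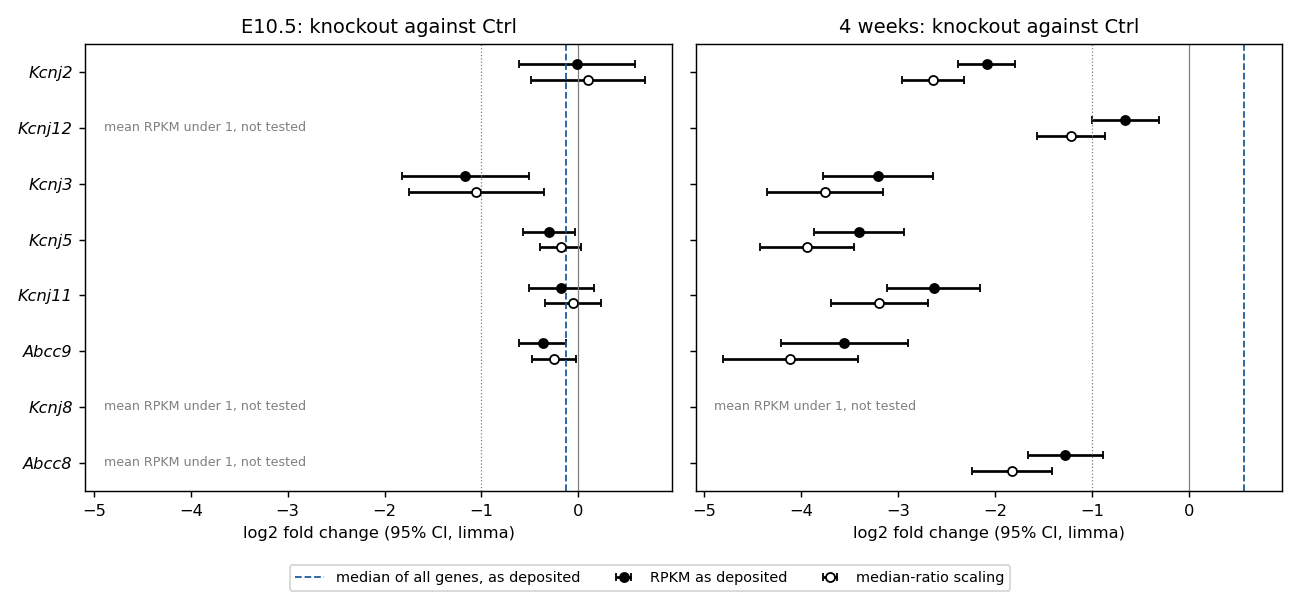
Log2 fold change of each tested channel gene, knockout against Ctrl, with its 95% confidence interval from limma, at E10.5 and at 4 weeks; filled points use RPKM as deposited, open points median-ratio scaling, and the dashed line is the median of all genes as deposited. The adult values run from -3.55 for Abcc9 to -0.65 for Kcnj12 and lie below 0 on both scales, whereas at E10.5 only the interval of Kcnj3 extends far below -1.

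KATP channels of heart muscle are octamers of pores and sulfonylurea receptors. Kcnj11 encodes Kir6.2, the sarcolemmal pore of the ventricle. It measured 33.4, 43.7 and 41.0 RPKM in adult Ctrl samples and 4.29, 8.08 and 6.93 in icKO. The means of 39.3 ± 5.34 and 6.43 ± 1.94 RPKM differed 6.12-fold, with a log2 fold change of -2.63 (SE 0.213, limma adjusted p = 5.28e-06), or -3.19 after scaling.

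Abcc9 encodes SUR2, the receptor that pairs with Kir6.2 in ventricle and with Kir6.1 in vascular muscle. It was the most abundant of the 8 transcripts in adult Ctrl cardiomyocytes, at 55.0, 59.7 and 50.6 RPKM, and measured 2.85, 4.40 and 7.67 in icKO. The means were 55.1 ± 4.54 and 4.97 ± 2.46 RPKM, 11.1-fold apart. The log2 fold change of -3.55 (SE 0.287, limma adjusted p = 5.29e-06), or -4.11 after scaling, was the most negative of the 7 tested, though within its error of that of Kcnj5, whose fold of means was slightly larger, and 48 of the 9517 genes tested had a lower one.

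Abcc8 encodes SUR1, best known from the pancreatic β cell and in the mouse also found in atrial KATP channels. It measured 7.35, 10.17 and 8.38 RPKM in adult Ctrl samples and 2.95, 3.27 and 4.37 in icKO, with no overlap. The means were 8.63 ± 1.43 and 3.53 ± 0.743 RPKM, 2.45-fold apart, with a log2 fold change of -1.27 (SE 0.171, limma adjusted p = 0.000117), or -1.83 after scaling. Abcc8 made up 11.8%, 14.6% and 14.2% of the summed receptor RPKM in Ctrl and 50.9%, 42.6% and 36.3% in icKO. The mean share was 13.5% ± 1.51 and 43.3% ± 7.33, a difference of 29.8 percentage points without overlap (exact permutation test, two-sided p = 0.1, the smallest possible, and 0.133 after adjustment).

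Kcnj8 encodes Kir6.1, the pore of KATP channels in smooth muscle and pericytes, and was the only one of the 8 genes that was not lower in the adult knockout. It measured 0.330, 0.631 and 0.841 RPKM in Ctrl and 0.422, 1.04 and 1.72 in icKO, and the groups overlapped (exact permutation test, two-sided p = 0.4). With a mean of 0.831 RPKM it fell under the filter. Fitted without the filter on RPKM as deposited, its log2 fold change was 0.63 (95% confidence interval -0.46 to 1.71, limma adjusted p = 0.303). The median of all genes in that fit was 0.36, and Kcnj8 was not fitted on the median-ratio scale. Within the pore pair, Kcnj8 was 0.979%, 1.42% and 2.01% of summed RPKM in Ctrl and 8.96%, 11.4% and 19.9% in icKO, a mean difference of 11.96 percentage points without overlap (exact permutation test, two-sided p = 0.1, the smallest possible, and 0.133 after adjustment).

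Markers of the cell types that are known to carry Kcnj8 moved in the same samples. The 5 mural cell markers (Pdgfrb, Rgs5, Cspg4, Notch3, Mcam) summed to 6.22 to 16.3 RPKM in adult Ctrl samples and 38.4 to 76.4 in icKO, and 4 of the 5 were higher in every icKO sample. Most of that rise was Mcam, with means of 1.09 RPKM in Ctrl and 32.6 in icKO. Rgs5, the most abundant of the 5 in Ctrl, overlapped. The 4 smooth muscle markers (Myh11, Acta2, Tagln, Cnn1) summed to 33.3 to 64.4 RPKM in Ctrl and 222 to 364 in icKO, with 3 of 4 higher in every icKO sample. That sum rested on Cnn1, at 0.086 to 0.267 RPKM in Ctrl and 180 to 330 in icKO, while Acta2, the most abundant of the 4 in Ctrl, was 48.1 ± 15.8 RPKM in Ctrl and 35.8 ± 7.60 in icKO, with overlap. Of all genes, 62% had every icKO sample above every Ctrl sample on this scale. After median-ratio scaling, limma called 2 of the 4 mural and 2 of the 3 smooth muscle markers tested higher and none lower, beside 11.1% and 15.9% of all genes. Fibroblast markers (Col1a1, Pdgfra, Dcn, Lum, Postn) summed to 3.57 to 6.33 RPKM in Ctrl and 40.7 to 55.1 in icKO, and endothelial markers (Pecam1, Cdh5, Kdr, Tie1, Tek, Emcn) to 7.68 to 21.3 and 20.3 to 34.1. All 5 fibroblast markers were higher in every icKO sample, but of the 6 endothelial markers only Pecam1 and Emcn were. After median-ratio scaling, 2 of the 3 fibroblast markers tested and 0 of the 6 endothelial markers were called higher. The part of these cell types in the values of Kcnj8 and of the 7 genes that were lower was not tested. In such bulk samples fewer cells of a type and less RNA per cell cannot be told apart. Of the cardiomyocyte markers, 5 of 6 were lower in every icKO sample and Actn2 was higher in every one.

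Atrial and nodal cells are known for GIRK currents, so markers of both were read beside Kcnj3 and Kcnj5. Atrial markers (Myl7, Myl4, Sln, Nr2f2, Bmp10) summed to 2.05 to 2.35 RPKM in adult Ctrl cardiomyocytes and 7.58 to 24.2 in icKO, but only 1 of the 5, Myl4, was higher in every icKO sample, Myl7 ran from 0.205 to 7.30 in icKO, and the other 3 overlapped. Hcn4, a marker of nodal cells, was 3.52, 3.48 and 3.84 RPKM in Ctrl and 0.218, 0.188 and 0.482 in icKO, lower in every icKO sample as Kcnj3 and Kcnj5 were. The part of atrial and nodal cells in the result was not tested.

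At E10.5 no KATP gene was called. Kcnj11 was 5.58, 4.00 and 4.92 RPKM in Ctrl and 4.12, 4.28 and 4.30 in cKO, with overlap and a log2 fold change of -0.17 (SE 0.151, limma adjusted p = 0.514). Abcc9 was 17.4, 15.6 and 17.8 RPKM in Ctrl and 12.7, 14.1 and 12.53 in cKO, so every cKO sample was lower, but the log2 fold change of -0.37 (SE 0.110, limma adjusted p = 0.0839) missed both thresholds. Abcc8 was 0.497, 0.346 and 0.290 RPKM in Ctrl and 0.290, 0.173 and 0.118 in cKO. The groups of Abcc8 touched at 0.290 (exact permutation test, two-sided p = 0.2), and without the filter its log2 fold change was -0.72 (limma adjusted p = 0.334). Kcnj8 was at 0.023 to 0.246 RPKM, which is about 1 to 10 reads per sample, and no difference was detectable at this depth.

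Of all 8 genes at E10.5, Kcnj3, Kcnj5, Kcnj12 and Abcc9 had every cKO sample below every Ctrl sample, and none had every one above. These shares were 22.6% and 6.5% among the genes tested, a set above the filter that leaves out Kcnj12, Abcc8 and Kcnj8. In limma the unadjusted p was under 0.05 for Kcnj3, Abcc9 and Kcnj5, and for 2566 of all 10885 genes tested. Mural cell markers summed to 38.9 to 52.6 RPKM in E10.5 Ctrl and 67.6 to 75.1 in cKO. Most of that rise was Mcam, with means of 30.0 RPKM in Ctrl and 51.3 in cKO. Cspg4 and Notch3 were also higher in every cKO sample, and Pdgfrb and Rgs5 overlapped. Ventricular markers (Myl2, Myl3, Irx4, Hey2) summed to 2878 to 4904 and 1770 to 2143. That sum rested on Myl2, with means of 3105 and 1436 RPKM. Irx4 and Hey2 were also lower in every cKO sample, and Myl3 overlapped. Cardiomyocyte markers summed to 1406 to 2053 RPKM in Ctrl and 1324 to 1668 in cKO, with overlap. Of these only Ryr2 was lower in every cKO sample. Hcn4 was 7.40 to 7.61 RPKM in Ctrl and 2.71 to 4.85 in cKO, and the nodal marker Tbx18 was also lower in every cKO sample. The part of these cell types in the E10.5 values was not tested.

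**Figure D3:**
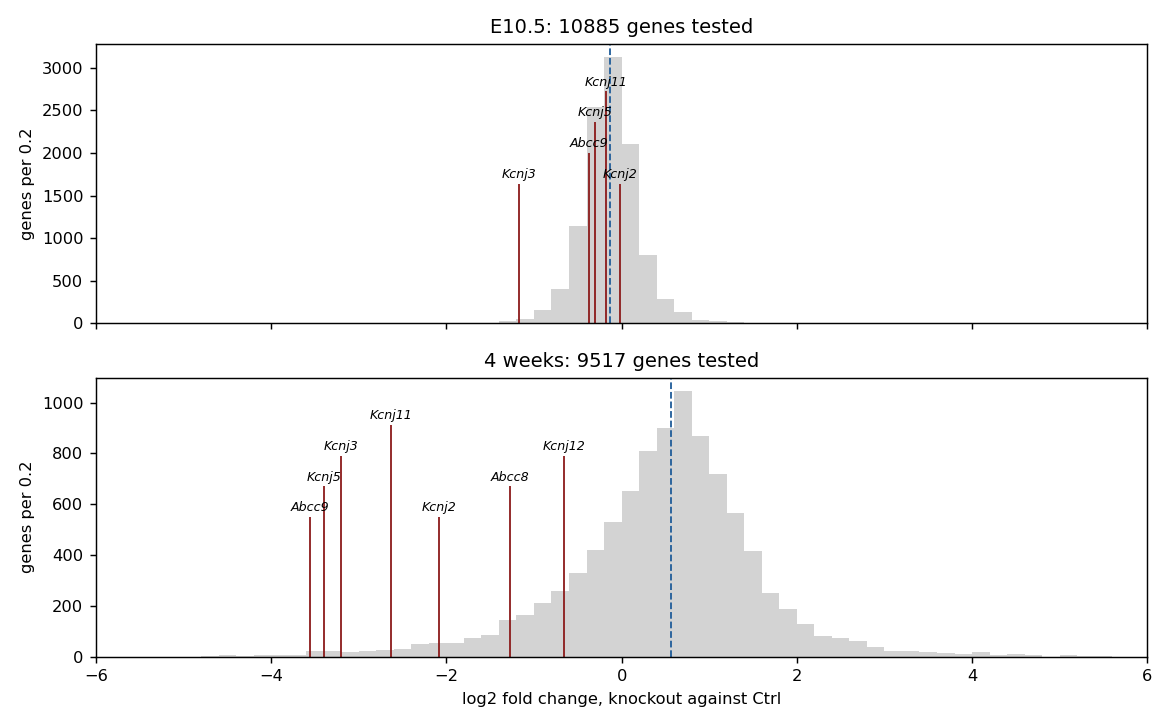
Number of genes per 0.2 of log2 fold change, knockout against Ctrl, at E10.5 and at 4 weeks on RPKM as deposited, over the range -6 to 6; red lines mark the channel genes tested and the dashed line the median of all genes. The adult values of Abcc9, Kcnj5 and Kcnj3 lie in the far lower tail, with 48, 65 and 87 genes below them, whereas at E10.5 Kcnj2, Kcnj5, Kcnj11 and Abcc9 lie within the bulk.

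The difference between stages was tested directly for the 5 genes measured above 1 RPKM at both. All 5 had a more negative effect in adult cardiomyocytes than in E10.5 hearts, beside 5.03% of the 8909 genes tested at both stages, or 13.7% after median-ratio scaling. None had a more positive one, beside 34.3% and 9.47%. The difference of log2 fold changes was -3.19 for Abcc9 (SE 0.341, limma adjusted p = 3.79e-06) and -3.10 for Kcnj5 (SE 0.252, limma adjusted p = 4.37e-07). It was -2.46 for Kcnj11, -2.07 for Kcnj2 and -2.04 for Kcnj3, with limma adjusted p of at most 0.000422. For Med30 the difference had the other sign, at 1.56 (limma adjusted p = 0.00155), but after median-ratio scaling it was 0.83 and no longer called (limma adjusted p = 0.0748). The stages differ in the Cre driver, in the time since deletion, in the sample, hearts against isolated cardiomyocytes, and in the state of the heart. The study places E10.5 before overt cardiac phenotypes, though it reports reduced cardiomyocyte proliferation in both ventricles at E10.5. The adult samples it places after the onset of cardiac dysfunction. It holds that the adult changes likely include secondary ones. These differences between the stages cannot be told apart. Without the filter, Abcc8 (difference -0.55, limma adjusted p = 0.243), Kcnj12 (-0.05, limma adjusted p = 0.916) and Kcnj8 (0.59, limma adjusted p = 0.534) showed no difference past the threshold.

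The order of the levels, which RPKM allows since it is per length, changed with stage and genotype. The tables of the stages were normalized separately, so values set across stages are approximate. In adult Ctrl cardiomyocytes the order was Abcc9, Kcnj11, Kcnj2, Kcnj3, Kcnj5, Kcnj12, Abcc8 and Kcnj8. Ranges of neighbours overlapped from Kcnj2 to Kcnj12 and were separate elsewhere. In icKO the first was Kcnj12, at 7.51 RPKM, followed by Kcnj11, Abcc9, Kcnj2 and Abcc8, all with overlapping neighbours, and then by Kcnj3, Kcnj5 and Kcnj8 between 1.06 and 1.75 RPKM. In E10.5 Ctrl hearts Kcnj5 (18.5 ± 1.04 RPKM) and Abcc9 (16.9 ± 1.13) overlapped at the top, and Kcnj11, Kcnj3, Kcnj2, Kcnj12, Abcc8 and Kcnj8 followed, with only Kcnj3 and Kcnj2 overlapping. The cKO order differed in a single exchange, with Kcnj2 (1.95 ± 0.346 RPKM) above Kcnj3 (0.948 ± 0.288).

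**Figure D4:**
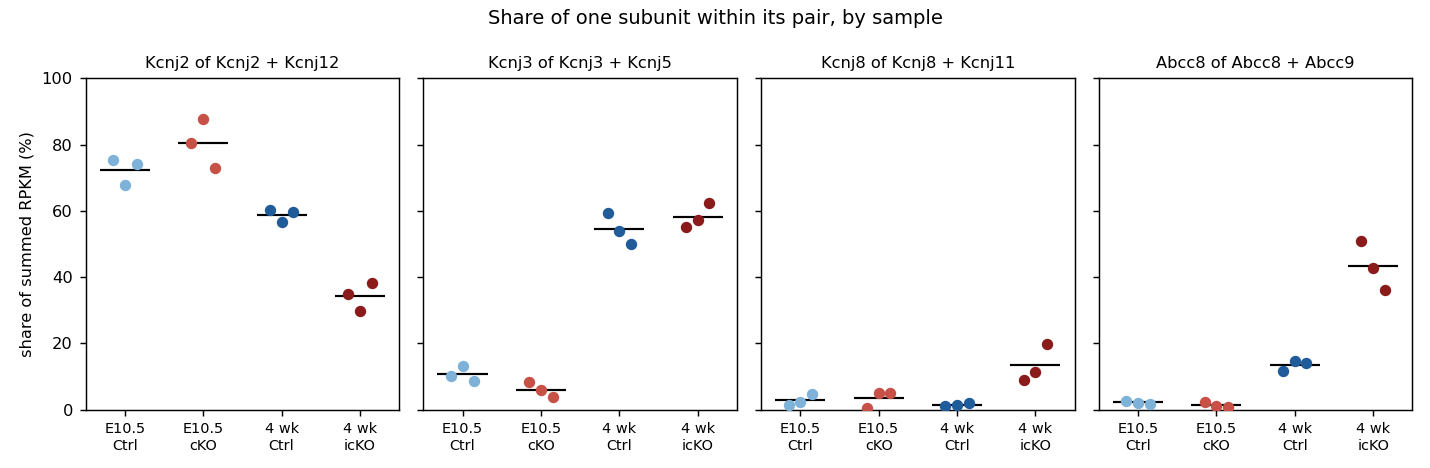
Share of summed RPKM that one subunit takes within its pair, in percent, by sample and group, with bars at the group means. At 4 weeks the share of Kcnj2 is lower and those of Kcnj8 and Abcc8 are higher in every icKO sample than in every Ctrl sample, and the share of Kcnj3 overlaps.

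The other 9 Kir genes (Kcnj1, Kcnj4, Kcnj6, Kcnj9, Kcnj10, Kcnj13, Kcnj14, Kcnj15, Kcnj16) were scarcely detected in adult cardiomyocytes. Only Kcnj14 passed the filter, at 0.96 on the log2 scale (limma adjusted p = 0.456). Kcnj6, which encodes the GIRK subunit Kir3.2 and is named here after its values were seen, was 0.032, 0.024 and 0 RPKM in adult Ctrl and 0.526, 0.658 and 0.672 in icKO. That is at most about 1.5 reads in a Ctrl sample and 29.2 to 39.98 reads in an icKO sample, and it is opposite in direction to Kcnj3 and Kcnj5. Without the filter Kcnj6 was called higher (limma adjusted p = 2.03e-05), as were 21.3% of all genes in that fit. An antisense gene, Gm41505, shares 380 exonic bases with Kcnj6. At E10.5 Kcnj6 was 1.62 ± 0.0873 RPKM in Ctrl and 1.59 ± 0.420 in cKO (limma adjusted p = 0.913).

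Upstream of the GIRK channels, the share of receptor and G protein genes called was near that of all genes. Of 12 genes listed, 11 were tested at 4 weeks, 4 were called higher and 1 lower, beside 28% and 8.45% of all genes, with a median log2 fold change of 0.75 beside 0.57. The inhibitory α subunits Gnai2 (1.65) and Gnai3 (1.61), the β subunit Gnb1 (1.39) and Gnao1 (1.26) rose as deposited, and Rgs6, which speeds channel closing, fell by 1.10 on the log2 scale. After median-ratio scaling 2 were higher and 3 lower, beside 11.1% and 15.9%, the median was 0.19, and the lower genes then included the muscarinic receptor Chrm2 (-1.45) and Gnb5 (-1.08), the β subunit that binds Rgs6. Chrm2 was 33.4, 38.3 and 40.8 RPKM in Ctrl and 19.0, 26.6 and 16.1 in icKO, and its log2 value as deposited was -0.89 (limma adjusted p = 0.00103). At E10.5 none of the 11 genes tested was called.

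Most tested genes of the other potassium currents fell as well. Of 12 listed, 8 were tested at 4 weeks, 6 were called lower and none higher, with a median log2 fold change of -2.09, beside 8.45% of all genes called lower and 28% higher. After scaling 7 were lower, beside 15.9% of all genes, and the median was -2.61. Kcnip2, the accessory subunit of the transient outward current, was 53.3, 68.4 and 53.4 RPKM in Ctrl and 0.147, 0.268 and 0.042 in icKO. Its log2 fold change of -7.95 depends on the pseudocount of 0.1 because the icKO values are so low. Kcnh2 (-2.53), which encodes the rapid delayed rectifier, Kcnd2 (-2.23), a transient outward pore, and Kcnk3 (-2.15), the background channel TASK-1, also fell. At E10.5, 1 of 4 tested genes was called, Kcne1, the accessory subunit of the slow delayed rectifier, at -1.33 (limma adjusted p = 0.0280), beside 0.542% of all genes called lower.

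Partners that anchor or sustain the channels did not show the lower values of the channel genes as a group. Of 10 anchoring and scaffold genes, 8 were tested at 4 weeks, 3 were higher and 1 lower on RPKM as deposited, beside 28% and 8.45% of all genes, with a median of 0.74. The actin crosslinker Flna (3.66) and the scaffolds Cask (1.51) and Sntb1 (1.45) rose, and Ank2 (-1.38), the ankyrin known to anchor Kir6.2, fell. After scaling 1 was higher and 1 lower, beside 11.1% and 15.9% of all genes. Of 6 phosphoinositide genes, 4 were higher and none lower, among them Pip5k1a (1.97), a kinase that makes PIP2, and Cdipt (1.45), which makes its precursor. All genes tested had a median of 0.57, with 28% called higher. After scaling 1 of the 6 (Pip5k1a, 1.41) was called higher and none lower, beside 11.1% and 15.9% of all genes. The other 3 called as deposited kept a positive value below the fold threshold, and the 2 not called as deposited were negative. The list median was 0.69 beside 0.01 for all genes. None of either list was called at E10.5.

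**Figure D5:**
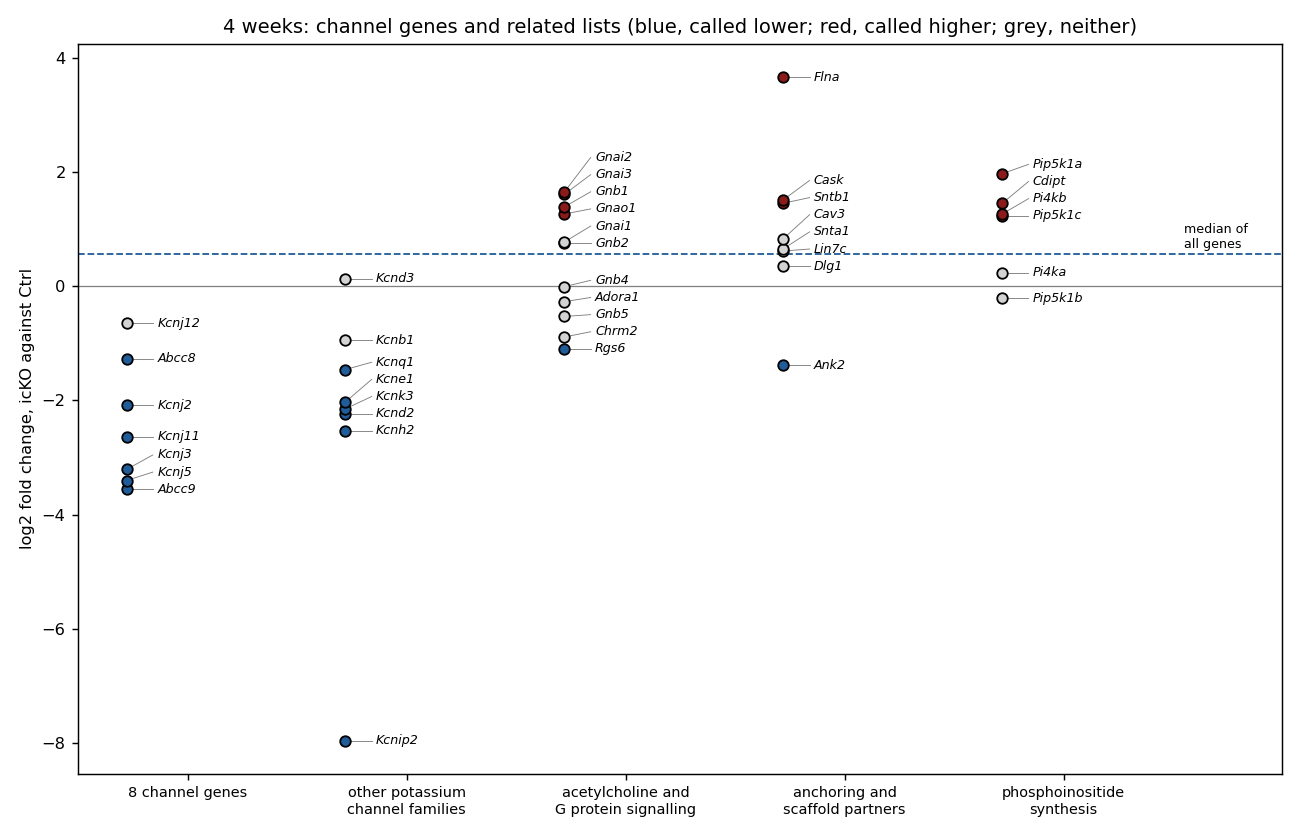
Log2 fold change at 4 weeks, icKO against Ctrl, on RPKM as deposited, for the tested genes of 5 lists; blue points were called lower, red points higher and grey points neither, and the dashed line is the median of all genes, 0.57. The channel genes and the other potassium channels lie below 0 with the exception of Kcnd3, whereas the signalling, scaffold and phosphoinositide lists spread around and above the median.

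The genes most alike in level to each channel gene over the 12 samples were found by Pearson's r of log2(RPKM + 0.1) among 11493 genes. These r values are descriptions, since samples fall into 4 groups and share table and depth. Kcnj11 was closest to Cs, citrate synthase (r = 0.992), and Hadh, an enzyme of fatty acid oxidation (r = 0.990). Kcnj2 was closest to Antxr2 (0.994) and Mlf1 (0.991), Kcnj12 to Eif4e3 (0.997) and the respiratory chain gene Ndufa10 (0.996), and Abcc8 to the calcium release protein gene Trdn (0.994) and Lrrc14b (0.992). For Kcnj3 they were Sirt5 (0.988) and Bckdhb (0.986), for Kcnj5 Ripor2 (0.990) and Frem2 (0.987), and for Abcc9 Tmem94 (0.985) and Pfkfb1 (0.983). Kcnj8 was too low to be searched.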

How the data were processed

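RNA of 6 E10.5 heart samples and 6 samples of isolated adult cardiomyocytes was sequenced after ribosomal depletion (the labels name the source of all as heart). Per the submitters' processing notes, cutadapt 2.6, STAR 2.5.3a, HOMER 4.11.1 and DESeq2 1.12.4 were used with mm10. The annotation and the strand setting are not given in the sources used here. Each stage has 1 table, in which the authors deposited RPKM per gene and sample, their mean RPKM, a log2 fold change and an FDR, which is an adjusted p-value. The authors' log2 fold changes and FDR were not used. Knockout columns of the E10.5 table are headed icKO and were taken as the cKO samples.

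RPKM were transformed as log2(RPKM + 0.1). Each stage was fitted with limma 3.58.1 (lmFit, eBayes with trend) in R 4.3.3 over genes with a mean above 1 RPKM, with Benjamini-Hochberg adjustment over all genes tested. Calls needed an adjusted p below 0.05 and an absolute log2 fold change above 1. Stages were contrasted in 1 fit of 12 samples. Shares and genes below the filter were compared with exact permutation tests over samples. The fit was tested on simulated data. Alternatives covered pseudocounts, filters, scalings, a replicate block and leaving out each sample. Fold changes on this scale understate changes of low genes.

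Depth was estimated from the spacing of low RPKM: 62.7% to 69.9% of low values lay within 0.1 of a whole read, beside 20% by chance, too few to recover counts. Such floors cover counting error only. Replicates are separate samples per the labels, but nothing states that each is a separate animal or pool, so p-values measure the spread between these samples.

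The channel genes and the gene lists were chosen with earlier results of these data known. Named are the 8 genes, Med30, up to 4 called genes per list and stage with the largest change, and 2 genes most like each channel gene; Kcnj6, Kcnj14, Chrm2, Gnb5, Kcnd3 and single markers with values of their own (Cnn1, Acta2, Myl4, Myl7, Hcn4, Tbx18) were named after their values were seen. Some marker lists are not reported here.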

Additional observations from a re-analysis of the deposited data

Results flagged for a closer look

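The knockout effect differed between the E10.5 hearts and the adult cardiomyocytes for all 5 channel genes that could be tested at both, by the contrast of the log2 fold changes in limma. The effect at 4 weeks minus that at E10.5 was -3.19 for Abcc9, -3.10 for Kcnj5, -2.46 for Kcnj11, -2.07 for Kcnj2 and -2.04 for Kcnj3. At 4 weeks the lower levels were seen in 3 of 3 icKO samples for each of these genes, as for 18.9% of all genes tested. At E10.5 Kcnj3, Kcnj5 and Abcc9 were likewise lower in every cKO sample, as were 22.6% of all genes tested. Over the alternative settings in which each gene was tested, the difference stayed past both thresholds, with values from -3.91 to -2.85 for Abcc9 and from -2.76 to -1.72 for Kcnj3. Groups of 3 samples were not searched for outlying samples.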

How the results depend on the processing

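At 4 weeks the 6 channel genes called lower kept that call in each of 16 alternatives, and the count was 6 whenever a single sample was left out. Kcnj12 passed the fold threshold after median-ratio scaling (-1.21) and quantile normalization (-1.20) alone. At E10.5 no channel gene was called in any alternative. The E10.5 log2 fold change of Kcnj2 turned positive after median-ratio scaling (0.10), by quantile normalization (0.10) and when scaled with the 20 most abundant genes left out (0.15). Without 1 sample it ran from -0.28 to 0.13 (0.13 without Ctrl 1, 0.11 without Ctrl 3 and 0.13 without cKO 3). With a mean RPKM above 5, the stage difference could be fitted for 2 channel genes only, both called. The stage difference of Med30, 1.56, was 0.83 after median-ratio scaling and lost its call, which it kept in the other 21 alternatives. The E10.5 Kcnj8 share difference, 0.681 points, was -0.0540 without Ctrl 1, -0.0414 without cKO 2 and -0.0921 without cKO 3, within a range of -0.0921 to 2.18.

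Counts over all genes moved more. At E10.5, 59 lower and 26 higher became 36 and 12 with a pseudocount of 1, 35 and 17 without the filter, 34 and 9 above 5 RPKM, 36 and 48 without the 20 most abundant genes, and 18 to 102 and 9 to 36 when a sample was left out; the lower count was 24 without Ctrl 1, 18 without Ctrl 3, 35 without cKO 1, 32 without cKO 2 and 102 without cKO 3. Lower calls were 39 by quantile normalization and 38 without the trend. At 4 weeks, 804 lower and 2668 higher became 1511 and 1053 by median-ratio scaling, 1341 and 1213 by quantile normalization, and 454 and 1687 above 5 RPKM. Whether replicate numbers pair samples could not be settled. Correlations of same-numbered deviations were 0.0124, 0.101 and -0.0698 at E10.5, and 0.153, 0.0433 and 0.0450 at 4 weeks. Those of differently numbered samples ran from -0.177 to 0.130 at E10.5 and from -0.129 to 0.0808 at 4 weeks. The replicate block gave 61 lower and 32 higher at E10.5 and 805 and 2672 at 4 weeks, with 0 and 6 channel genes called lower, and changed no channel gene's call. The block's E10.5 adjusted p was 0.0531 for Kcnj3 (limma). Depth limits Kcnj8 and Abcc8 at E10.5, and the pseudocount understates changes of such low genes.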
